A study of Mus musculus with 12 samples.

Results

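The small leucine-rich proteoglycans are secreted matrix proteins built around a run of leucine-rich repeats. The 10 genes described here are Dcn, Bgn, Aspn, Lum, Fmod, Prelp, Kera, Omd, Ogn and Epyc. Each was read from the probe set that the platform annotation assigns to that gene alone, and each had 1 such probe set, so the family made up 10 of 19937 genes measured. The RNA was that of 2 sorted cell types from long bones; the mice were female C57BL/6 and either carried EO771 tumor cells or did not. It was hybridised to 12 arrays, 3 per group. Osteoblasts were sorted as GFP-, TR119-, CD45-, SCA1-, CD31- and CD51+ cells, and endothelial cells as GFP-, TR119-, CD45-, SCA1+ and CD31+ cells. The groups were osteoblasts of tumor-free mice, osteoblasts of tumor-bearing mice, endothelial cells of tumor-free mice and endothelial cells of tumor-bearing mice. Tumor-bearing mice had received 500000 EO771 cells, a mouse mammary carcinoma line, by injection into the heart, and the tumors grew for about 2 weeks under bioluminescence imaging. The age of the mice, any pooling of mice within an array, and whether the 2 cell types came from the same mice are not stated in the labels. The labels call the arrays of a group biological replicates.

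Small leucine-rich proteoglycans bind collagen fibrils and set their spacing and width, and several also hold growth factors such as TGF-beta in the matrix. They are sorted into classes by sequence and gene structure. Class I holds decorin (Dcn), biglycan (Bgn) and asporin (Aspn), class II the keratan sulfate-bearing or tyrosine-sulfated lumican (Lum), fibromodulin (Fmod), prolargin (Prelp), keratocan (Kera) and osteomodulin (Omd), and class III osteoglycin (Ogn) and epiphycan (Epyc). Bone matrix is rich in decorin and biglycan, tendon in decorin and fibromodulin, and growth plate cartilage is the known site of epiphycan.

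Values are log2 intensities as the authors normalized them, and array medians lay between 5.95 and 6.04. A difference of 1 is a doubling. A gene was tested if it exceeded the 40th percentile of an array, which lay between 5.51 and 5.61, in at least 3 of the 12 arrays; 14217 genes did, among them all 10 members. In every osteoblast array the median of 8 osteoblast markers lay between 9.72 and 10.56, against 5.83 to 6.19 in the endothelial arrays. The median of 12 endothelial markers lay between 9.51 and 10.12 in the endothelial arrays and between 5.93 and 6.28 in osteoblasts, so both sorts carried the markers of their labels.

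The members lie in clusters in the mouse genome. Dcn, Lum, Kera and Epyc follow each other on chromosome 10, Aspn, Omd and Ogn follow each other on chromosome 13 after the related gene Ecm2, and Prelp and Fmod are neighbours on chromosome 1 next to the related gene Optc, with 0 protein-coding genes between neighbours in each cluster. Bgn lies on the X chromosome. RefSeq promoter sequences of assembly GRCm38.p6, covering 250 bases before and 50 after the annotated start, were matched for 8 of the 10 members; Dcn and Lum are named only. The promoters of 5 members are shown because Bgn and Prelp were the members with clear signal in both cell types, while Aspn, Omd and Ogn are neighbours that separated the cell types. They are chrX:73483351-73483650 (plus strand), chr1:133921352-133921651 (minus strand), chr13:49544193-49544492, chr13:49582212-49582511 and chr13:49607765-49608064 (the last 3 on the plus strand). Each is written 5′ to 3′ along the gene, and capitals mark matches on either strand to the TATA box TATAAA, to the CCAAT box, to the GC box written as GGGCGG, to the RUNX core TGTGGT or to the AP-1 motif written as TGANTCA.
Bgn: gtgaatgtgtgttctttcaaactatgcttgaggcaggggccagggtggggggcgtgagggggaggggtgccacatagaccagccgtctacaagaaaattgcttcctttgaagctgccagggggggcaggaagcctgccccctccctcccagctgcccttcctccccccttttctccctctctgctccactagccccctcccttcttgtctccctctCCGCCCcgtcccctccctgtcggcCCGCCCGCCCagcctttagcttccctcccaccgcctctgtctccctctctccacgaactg
Prelp: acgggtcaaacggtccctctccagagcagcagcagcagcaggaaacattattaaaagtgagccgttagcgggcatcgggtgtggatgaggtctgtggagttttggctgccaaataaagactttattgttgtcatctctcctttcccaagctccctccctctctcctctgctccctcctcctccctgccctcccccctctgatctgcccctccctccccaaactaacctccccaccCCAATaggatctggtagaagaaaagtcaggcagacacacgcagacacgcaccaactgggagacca
Aspn: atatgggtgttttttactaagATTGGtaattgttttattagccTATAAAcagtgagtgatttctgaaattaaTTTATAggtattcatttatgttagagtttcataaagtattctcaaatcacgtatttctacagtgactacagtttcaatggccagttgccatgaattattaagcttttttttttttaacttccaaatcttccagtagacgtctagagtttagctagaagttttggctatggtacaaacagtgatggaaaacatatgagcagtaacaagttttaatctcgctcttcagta
Omd: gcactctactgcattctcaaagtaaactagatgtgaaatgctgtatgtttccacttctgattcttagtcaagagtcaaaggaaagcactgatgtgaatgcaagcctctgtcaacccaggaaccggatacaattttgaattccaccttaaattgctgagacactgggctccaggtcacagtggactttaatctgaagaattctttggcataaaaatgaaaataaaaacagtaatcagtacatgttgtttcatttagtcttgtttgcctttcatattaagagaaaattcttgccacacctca
Ogn: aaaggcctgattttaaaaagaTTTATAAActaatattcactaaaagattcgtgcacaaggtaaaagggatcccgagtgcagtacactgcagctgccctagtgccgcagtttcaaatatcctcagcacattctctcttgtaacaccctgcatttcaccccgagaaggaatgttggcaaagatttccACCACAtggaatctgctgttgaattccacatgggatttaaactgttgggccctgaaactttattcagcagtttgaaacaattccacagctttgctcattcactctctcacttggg

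The Bgn promoter was 63.7% G or C and that of Prelp 55.3%, against a median of 52.7% over 32851 promoters of the same length. The other members lay lower, with Fmod at 51%, Ogn at 42.3%, Kera at 41%, Omd at 37.7%, Aspn at 31%, and the 2 annotated starts of Epyc at 40.3% and 32.3%. Bgn held 3 matches to GGGCGG, of which 2 overlap each other, and this motif is found in 35.7% of all promoters. Aspn held 2 matches to TATAAA, and Ogn 2 that overlap each other; 13.6% of all promoters hold one. Ogn also held 1 match to TGTGGT (16.8% of all promoters), as did 1 of the Epyc starts. CCAAT was matched 3 times in Kera and 1 time each in Aspn, Fmod and Prelp (37.4% of all promoters). TGANTCA was in 0 of the member promoters and in 7.81% of all. The E-box pattern CANNTG, which reads alike on both strands and is not in capitals, was matched in all of these promoters but those of Kera and Omd, and in 72.3% of all promoters. These matches describe the letters in the window only.

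The first comparison asked how the family differs between osteoblasts and endothelial cells. In tumor-free mice 8 of the 10 members were higher in osteoblasts and 0 were lower (limma, adjusted p under 0.05 by Benjamini-Hochberg over all genes tested), where 5.38% of all genes tested were called higher; at an unadjusted p under 0.05 the counts were 8 and 0, where 10.5% of all genes were higher. In tumor-bearing mice 7 of 10 were higher and 0 lower, where 4.89% of all genes were called higher (9 and 0 at an unadjusted p under 0.05, where 10.8% of all genes were higher). The median log2 difference over the 10 members was 4.35 in tumor-free and 4.05 in tumor-bearing mice, beside -0.01 and -0.03 over all genes tested. Of the 10 members Lum, Aspn and Dcn differed most in tumor-free mice and Lum, Aspn and Omd in tumor-bearing mice, while Bgn differed by less than 1 log2 unit, and Prelp did not pass the test in either condition. Osteoblast and endothelial arrays did not overlap for 9 members in tumor-free mice and for 7 in tumor-bearing mice, where 13.6% and 12.1% of all genes lay wholly higher in osteoblasts. For Epyc in tumor-free mice the arrays next to the gap were both below the filter level, at 4.70 in osteoblasts and 4.63 in endothelial cells. In sorted bulk RNA, fewer cells of a type and less RNA per cell cannot be told apart. Several members passed the filter on low values through the osteoblast arrays: Lum, Fmod, Kera, Omd and Epyc were below the filter level in all 6 endothelial arrays, so their endothelial values are near the floor of the array. In endothelial cells of tumor-free mice Ogn was below it in all 3 arrays, Aspn in 2 of 3 and Dcn in replicate 2. Differences against these values may be understated and give the size of a change only roughly.

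**Figure D1:**
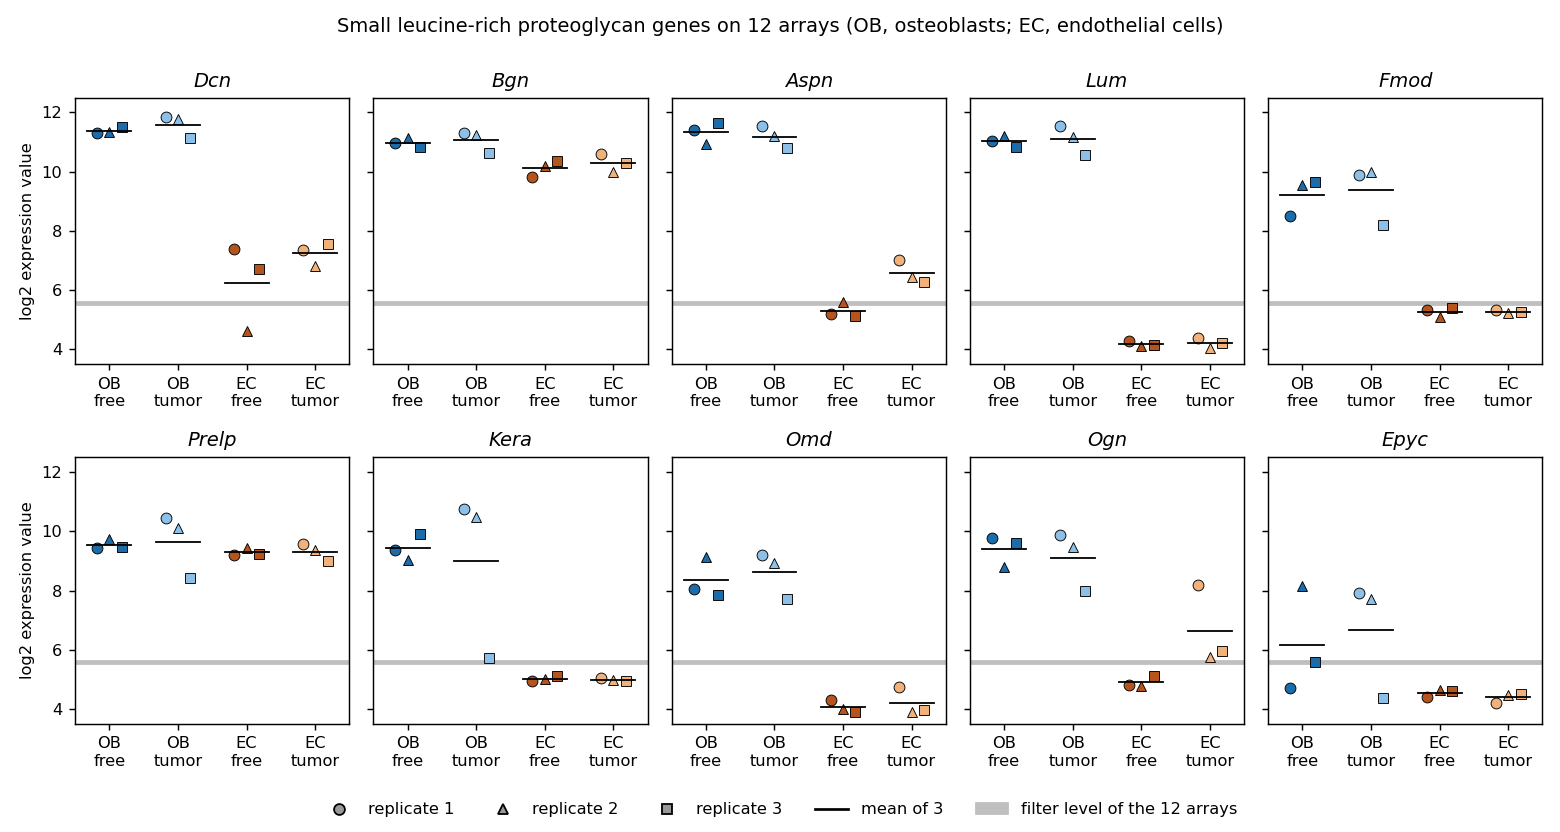
Deposited log2 intensity of the 10 members on each of the 12 arrays, by group, with a line at each group's mean and a grey band at the filter level. Lum, Fmod, Kera and Omd sit near the floor in all 6 endothelial arrays, Bgn and Prelp are bright in every array, and Aspn and Ogn lie higher in the 3 endothelial arrays of tumor-bearing mice than in those of tumor-free mice.

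Among the class I members, decorin, which binds collagen type I and TGF-beta, was at 11.31, 11.35 and 11.51 in osteoblasts of tumor-free mice and at 11.85, 11.79 and 11.13 in those of tumor-bearing mice. Its endothelial values were 7.38, 4.61 and 6.71 without tumor and 7.36, 6.81 and 7.56 with tumor. The 6 osteoblast arrays were all far above the 6 endothelial arrays, and the endothelial array of tumor-free replicate 2 was the lowest of all. Between the cell types Dcn differed on the log2 scale by 5.16 (SE 0.56, adjusted p = 0.000159, limma) in tumor-free and 4.35 (SE 0.56, adjusted p = 0.000555) in tumor-bearing mice.

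Biglycan, a chondroitin or dermatan sulfate proteoglycan that bone needs to reach its full mass, gave a much smaller contrast. Bgn was at 10.96, 11.12 and 10.84 in osteoblasts of tumor-free mice and at 11.31, 11.23 and 10.64 in those of tumor-bearing mice. In endothelial cells it was at 9.83, 10.18 and 10.35 without tumor and at 10.61, 9.99 and 10.30 with tumor. All arrays carried a strong signal, and the cell types were close but did not overlap within a condition. The log2 difference for Bgn was 0.86 (SE 0.22, 1.81-fold, adjusted p = 0.0269, limma) in tumor-free mice and 0.76 (SE 0.22, 1.69-fold, adjusted p = 0.0515) in tumor-bearing mice. The tumor-free call was lost without osteoblast tumor-free replicate 1 or 2 (adjusted p = 0.0645 and 0.0841) or endothelial tumor-free replicate 1 or 2 (adjusted p = 0.109 and 0.0661). The tumor-bearing value passed the test without osteoblast tumor-bearing replicate 3 (adjusted p = 0.0155) or endothelial tumor-bearing replicate 1 (adjusted p = 0.0384).

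Asporin, which lacks the glycosaminoglycan chains of its class and can inhibit TGF-beta and BMP signalling, was at 11.40, 10.95 and 11.64 in osteoblasts of tumor-free mice and at 11.54, 11.21 and 10.81 in those of tumor-bearing mice. Endothelial Aspn was at 5.19, 5.60 and 5.12 without tumor and at 7.02, 6.43 and 6.29 with tumor. Osteoblasts were high in every array, and the endothelial arrays of tumor-bearing mice were all above those of tumor-free mice. The log2 difference for Aspn was 6.02 (SE 0.26, adjusted p = 1.30e-07, limma) in tumor-free and 4.60 (SE 0.26, adjusted p = 1.07e-06) in tumor-bearing mice.

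Of class II, lumican, a regulator of collagen fibril width, had the clearest split. Lum was at 11.04, 11.22 and 10.85 in osteoblasts of tumor-free mice and at 11.56, 11.17 and 10.57 in those of tumor-bearing mice. The endothelial values lay at 4.27, 4.13 and 4.17 without tumor and at 4.38, 4.06 and 4.20 with tumor, well under the filter level. The log2 difference was 6.85 (SE 0.21, adjusted p = 1.63e-08, limma) in tumor-free and 6.89 (SE 0.21, adjusted p = 1.62e-08) in tumor-bearing mice.

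Fibromodulin, which guides collagen cross-linking in tendon, was at 8.50, 9.54 and 9.65 in osteoblasts of tumor-free mice and at 9.89, 10.00 and 8.21 in those of tumor-bearing mice. Fmod stayed between 5.08 and 5.39 in the 6 endothelial arrays, so that all osteoblast arrays were higher. The resulting log2 difference was 3.96 (SE 0.44, adjusted p = 0.000174, limma) in tumor-free and 4.09 (SE 0.44, adjusted p = 0.000151) in tumor-bearing mice.

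Osteomodulin, a proteoglycan of mineralized bone matrix, was at 8.06, 9.15 and 7.86 in osteoblasts of tumor-free mice and at 9.19, 8.94 and 7.71 in those of tumor-bearing mice. Omd lay between 3.89 and 4.75 in the endothelial arrays, below every osteoblast array. Omd thus differed by a log2 value of 4.28 (SE 0.43, adjusted p = 8.63e-05, limma) in tumor-free and 4.41 (SE 0.43, adjusted p = 7.56e-05) in tumor-bearing mice.

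Keratocan, best known as a corneal keratan sulfate proteoglycan, was at 9.39, 9.04 and 9.92 in osteoblasts of tumor-free mice. In osteoblasts of tumor-bearing mice it was at 10.76 and 10.47 in replicates 1 and 2 and at 5.74 in replicate 3, which is close to the endothelial range of 4.94 to 5.12. The fitted log2 difference of Kera was 4.43 (SE 1.03, adjusted p = 0.0172, limma) in tumor-free and 4.003 (SE 1.03, adjusted p = 0.0318) in tumor-bearing mice. All groups share one estimate of the spread, which includes that array. The tumor-free call was lost without osteoblast tumor-free replicate 3 or any 1 of the endothelial tumor-free arrays (adjusted p = 0.0515 to 0.0571), and the tumor-bearing call without osteoblast tumor-bearing replicate 1 (0.108) or 2 (0.112), without any 1 of the endothelial tumor-bearing arrays (0.0811 to 0.0856), or when only the groups compared were fitted (0.136).

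Prolargin, which links basement membranes to connective tissue through heparan sulfate and collagen, was the exception in class II. Prelp was at 9.43, 9.74 and 9.48 in osteoblasts and at 9.22, 9.45 and 9.23 in endothelial cells of tumor-free mice. In tumor-bearing mice it was at 10.44, 10.10 and 8.42 in osteoblasts and at 9.57, 9.39 and 8.99 in endothelial cells. Both cell types carried a strong signal and their arrays overlapped in both conditions. On the log2 scale Prelp differed by 0.25 (95% confidence interval -0.67 to 1.17, adjusted p = 0.793, limma) in tumor-free mice and 0.34 (-0.59 to 1.26, adjusted p = 0.717) in tumor-bearing mice. Without osteoblast tumor-bearing replicate 3 the latter was 0.96 and passed the test (adjusted p = 0.0113), and without replicate 1 it was -0.056.

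In class III, osteoglycin, a bone and vessel wall proteoglycan also called mimecan, was at 9.78, 8.80 and 9.61 in osteoblasts of tumor-free mice and at 9.87, 9.48 and 7.98 in those of tumor-bearing mice. Endothelial Ogn was at 4.81, 4.77 and 5.11 without tumor and at 8.19, 5.75 and 5.96 with tumor. Endothelial tumor-bearing replicate 1 was above osteoblast tumor-bearing replicate 3, so the cell types overlapped in tumor-bearing mice only. Ogn differed between the cell types by a log2 value of 4.50 (SE 0.64, adjusted p = 0.000937, limma) in tumor-free and 2.48 (SE 0.64, adjusted p = 0.0328) in tumor-bearing mice. The latter call was lost without osteoblast tumor-bearing replicate 1 or 2 (adjusted p = 0.115 and 0.103), endothelial tumor-bearing replicate 2 or 3 (0.117 for each) or any 1 endothelial tumor-free array (0.0502 to 0.0511), and when only the groups compared were fitted (0.125).

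Epiphycan, the cartilage member, was uneven among the osteoblast arrays. Epyc was at 4.70, 8.15 and 5.59 in osteoblasts of tumor-free mice and at 7.92, 7.72 and 4.36 in those of tumor-bearing mice, while the endothelial arrays lay between 4.21 and 4.63. Among the 6 osteoblast arrays 3 lay at 7.72 or higher and 3 at 5.59 or lower. The log2 difference for Epyc was 1.60 (95% confidence interval -0.55 to 3.75, adjusted p = 0.375, limma) in tumor-free and 2.27 (0.12 to 4.42, adjusted p = 0.192) in tumor-bearing mice; without osteoblast tumor-bearing replicate 3 the latter was 3.42 (adjusted p = 0.0204). The tumor-free value was 0.60 without osteoblast tumor-free replicate 2 and did not pass the test whichever single array was left out. In tumor-bearing mice osteoblast replicate 3 lay within the endothelial range of Epyc.

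**Figure D2:**
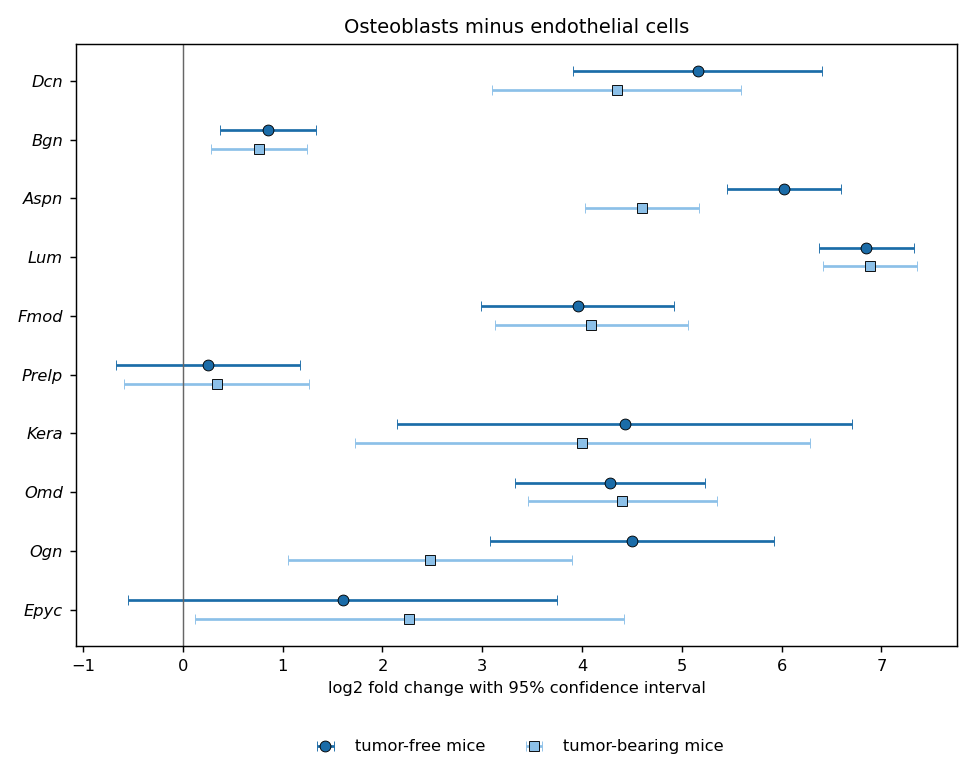
Log2 fold change of each member, osteoblasts minus endothelial cells, in tumor-free mice (circles) and tumor-bearing mice (squares), with 95% confidence intervals from limma that are not adjusted for the number of genes. Lum lies highest at 6.85 and 6.89, Bgn below 1, and the intervals of Prelp span 0 in both conditions.

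Ordered by group mean, both osteoblast groups were above both endothelial groups for each of the 10 members. The 2 osteoblast groups overlapped each other for every member. The lower osteoblast group did not overlap the higher endothelial group for any member other than Prelp and Ogn; for Epyc the higher osteoblast group, that of tumor-bearing mice, did overlap the endothelial arrays. The endothelial groups did not overlap each other for Aspn and Ogn only.

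The osteoblast arrays of a group were not alike. In osteoblasts of tumor-bearing mice replicate 3 was below both other replicates for 10 of 10 members, where 35.9% of all genes tested lay below both, and it was at least 1 log2 unit below both for 6 of 10, where 1.32% of all genes did. Replicate 3 lay below the mean of replicates 1 and 2 by 4.88 for Kera (log2 difference -4.88), and the differences were -3.46 for Epyc, -1.85 for Prelp, -1.73 for Fmod, -1.69 for Ogn and -1.36 for Omd. The differences were smaller for Lum (-0.79), Dcn (-0.69), Bgn (-0.63) and Aspn (-0.57). The median over the members was -1.52, and over all genes -0.0028. These are differences among 3 arrays of 1 group and have no test.

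Markers of other cell types differed in the same array. The median of 6 tendon markers (without the members Kera and Fmod) was 9.76, 10.14 and 7.13 over replicates 1 to 3 of this group. Tnmd, a defining tenocyte gene, was at 9.61, 10.15 and 5.14 there, and the tendon matrix gene Thbs4 at 10.50, 10.68 and 7.18, while the tendon transcription factor Scx was level at 7.04, 7.28 and 7.08. Of the remaining tendon markers, Tnc was level at 11.33, 11.26 and 11.21. Mkx (6.77, 7.13 and 6.29) and Egr1 (9.90, 10.13 and 9.28) were lowest in replicate 3 by smaller steps. The fall of the tendon median was thus larger than that of most of its genes. Chondrocyte markers had medians of 9.02, 9.58 and 7.83 and osteoblast markers of 10.31, 10.41 and 9.72, both lowest in replicate 3. Pan-haematopoietic markers had medians of 5.98, 5.87 and 7.16, highest in replicate 3, and fibroblast markers of 7.67, 7.48 and 7.65. In osteoblasts of tumor-free mice chondrocyte medians were 8.17, 9.70 and 8.05, highest in replicate 2. Bgn, Lum, Prelp, Omd and Epyc were highest in that array as well, while Aspn, Kera and Ogn were lowest there. Pan-haematopoietic medians were 5.87, 5.45 and 6.88 there and neutrophil medians 6.92, 7.73 and 9.65, both highest in replicate 3, in which the members had no common direction. The part of these cell types in the members' values was not tested.

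**Figure D3:**
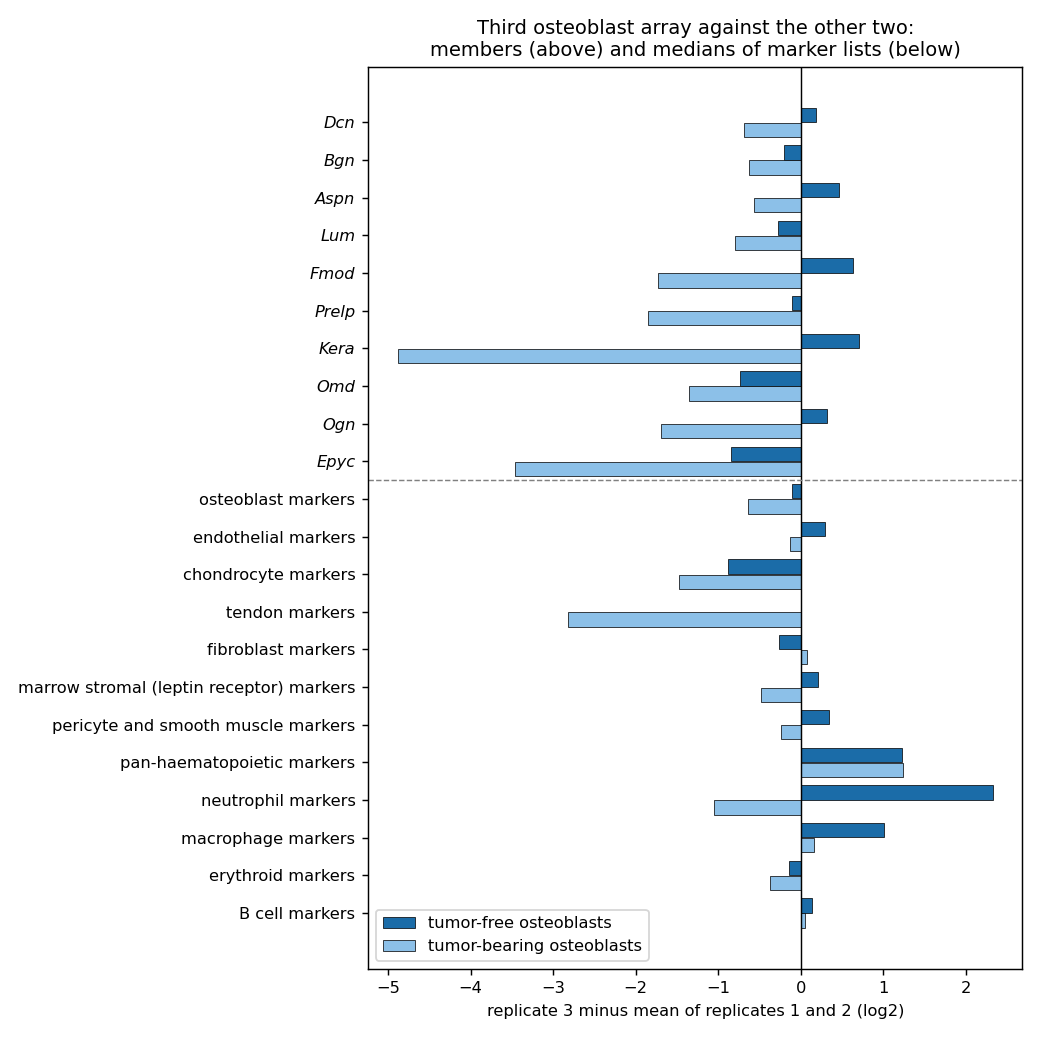
Log2 value of replicate 3 minus the mean of replicates 1 and 2 in osteoblasts of tumor-free and tumor-bearing mice, for each member (above the dashed line) and for the medians of the marker lists (below it). In tumor-bearing mice the bars of all 10 members lie below 0, from -4.88 for Kera to -0.57 for Aspn.

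The next comparison asked what tumor-bearing did to the family in each cell type. In osteoblasts 0 of 10 members passed the test in limma, where 0.0563% of all genes were called, and 0 of 10 had an unadjusted p under 0.05, where 9.78% of all genes did. Differences were positive for 7 members, as for 46.7% of all genes, and negative for 3, from -0.46 for Kera (95% confidence interval -2.74 to 1.82) to 0.51 for Epyc (-1.64 to 2.66). The intervals were -1.04 to 1.45 for Dcn and -0.72 to 0.43 for Aspn. No member had groups that did not overlap, where 14.5% of all genes did. Leaving replicate 3 out of both osteoblast groups turned Kera to 1.40, which passed the test (adjusted p = 0.0154), and turned Aspn to 0.20 and Ogn to 0.38, which did not. Those arrays held the lowest Kera value with tumor (5.74) and the highest without (9.92), so both omissions raised the Kera difference. The pass is therefore no separate support for a tumor effect on Kera. In the same setting 45 of all genes were called, against 8 with all arrays. Without osteoblast tumor-bearing replicate 3 alone the differences were 1.17 for Kera (adjusted p = 0.106, limma), 0.27 for Ogn and 0.046 for Aspn, and none passed the test. In replicates 1 and 2 the tendon marker median was 8.30 and 8.14 without tumor and 9.76 and 10.14 with tumor. Tnmd was at 7.38 and 7.36 against 9.61 and 10.15, and Scx at 7.20 and 7.68 against 7.04 and 7.28. Thbs4 was at 9.23 and 8.61 against 10.50 and 10.68, and Mkx at 5.69 and 5.58 against 6.77 and 7.13. Egr1 was at 9.59 and 9.60 against 9.90 and 10.13, and Tnc at 11.78 and 11.45 against 11.33 and 11.26. With replicate 3 kept, the tendon list had a median difference per gene of 0.22, with 4 of 6 positive and 0 past the adjusted test in limma. The part of tendon cells in the Kera values was not tested.

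In endothelial cells 0 of 10 members passed the test in limma, where 0.0141% of all genes were called. Aspn and Ogn had an unadjusted p under 0.05 and were higher with tumor, where 2.62% of all genes met that rule, and both had groups that did not overlap, where 5.63% of all genes lay wholly higher. The log2 difference for Aspn was 1.28 (SE 0.26, 95% confidence interval 0.70 to 1.85, adjusted p = 0.379), from a mean of 5.30 ± 0.26 (SD, n = 3) without tumor to 6.58 ± 0.39 (SD, n = 3) with tumor. For Ogn it was 1.73 (SE 0.64, 95% confidence interval 0.31 to 3.15, adjusted p = 0.9999), from 4.90 ± 0.19 to 6.63 ± 1.36 (SD, n = 3 each), with replicate 1 of the tumor-bearing arrays at 8.19. The tumor-free arrays of both genes are at or near the floor, so these differences are rough. Without single arrays the Ogn difference ranged from 0.95 to 2.18, and that of Aspn from 1.06 to 1.43. Dcn differed by 1.01 (95% confidence interval -0.23 to 2.26, adjusted p = 0.9999) with overlapping arrays, and by 0.20 without endothelial tumor-free replicate 2, which lay below the filter level. The other 7 members lay between -0.15 and 0.18.

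Markers of leptin receptor-positive marrow stromal cells, a CXCL12-rich cell type of the bone marrow, were also higher in the endothelial arrays of tumor-bearing mice. Their median over 10 markers was 7.23, 7.25 and 7.38 without tumor and 8.51, 8.30 and 7.74 with tumor. All 10 differences were positive, 9 had an unadjusted p under 0.05 and 0 passed the adjusted test in limma. In this endothelial comparison 2.62% of all genes were higher at an unadjusted p under 0.05. Lepr itself was at 8.03, 7.28 and 7.43 without tumor and at 10.20, 9.34 and 8.82 with tumor. Replicate 1 was the highest of these tumor-bearing arrays for Lepr, Aspn and Ogn alike. The medians of osteoblast markers were 5.92, 5.83 and 6.09 without tumor and 6.19, 6.01 and 5.94 with tumor. Of 7 osteoblast markers tested, 5 differences were positive, 1 had an unadjusted p under 0.05 and 0 passed the adjusted test in limma. The osteoblast marker Ibsp was at 7.83, 8.26 and 7.90 without tumor and at 10.25, 8.87 and 8.76 with tumor. These Ibsp values did not overlap, and replicate 1 was the highest with tumor. The other tested osteoblast markers differed less. Their endothelial group means, without against with tumor, were 5.75 and 5.77 for Sp7, 6.16 and 6.22 for Alpl, and 7.55 and 7.53 for Col1a1. For Dmp1 they were 5.63 and 5.52, for Phex 5.01 and 5.35, and for Pth1r 6.26 and 6.34. Tendon marker medians were 5.89, 5.50 and 5.70 against 6.34, 6.17 and 5.98. Fibroblast markers were at 6.27, 6.10 and 6.35 against 6.68, 6.21 and 6.31. Pericyte and smooth muscle markers lay at 6.20, 6.25 and 6.55 without tumor and at 6.68, 6.89 and 6.92 with tumor, with no overlap; 8 of 10 differences were positive, 2 had an unadjusted p under 0.05 and 0 passed the adjusted test. Macrophage medians were 5.61, 5.84 and 5.62 against 5.85, 5.85 and 6.09. Taken gene by gene over the tested markers, the median difference was 0.85 for marrow stromal and 0.06 for osteoblast markers. It was 0.08 for pericyte and smooth muscle, 0.11 for tendon, 0.07 for fibroblast and 0.02 for macrophage markers. In osteoblasts the marrow stromal median was 9.30, 8.84 and 9.28 without tumor and 8.82, 8.68 and 8.27 with tumor. There 0 of 10 differences were positive, as were 46.7% of those of all genes. The part of any of these cells in the endothelial values of Aspn and Ogn was not tested.

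The tumor effect was then compared between the cell types. The difference of the effects, osteoblasts minus endothelial cells, was -1.42 for Aspn (SE 0.37, unadjusted p = 0.00287, adjusted p = 0.436 in limma) and -2.02 for Ogn (SE 0.91, unadjusted p = 0.0485, adjusted p = 0.769). For Dcn it was -0.81 (adjusted p = 0.900) and for Kera -0.42 (adjusted p = 0.980). Without endothelial tumor-free replicate 2 the value of Dcn was -0.00045, and without endothelial tumor-free replicate 1 it was -1.38. That of Ogn was -1.24 without endothelial tumor-bearing replicate 1. The marrow stromal markers had a median difference of the effects of -1.40, with 9 of 10 negative at an unadjusted p under 0.05 and 0 past the adjusted test; their part in the values of Aspn and Ogn was not tested. None of the 10 members passed the test in limma, where 0.0281% of all genes were called, and 2 of 10 were negative with an unadjusted p under 0.05, where 2.95% of all genes were.

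**Figure D4:**
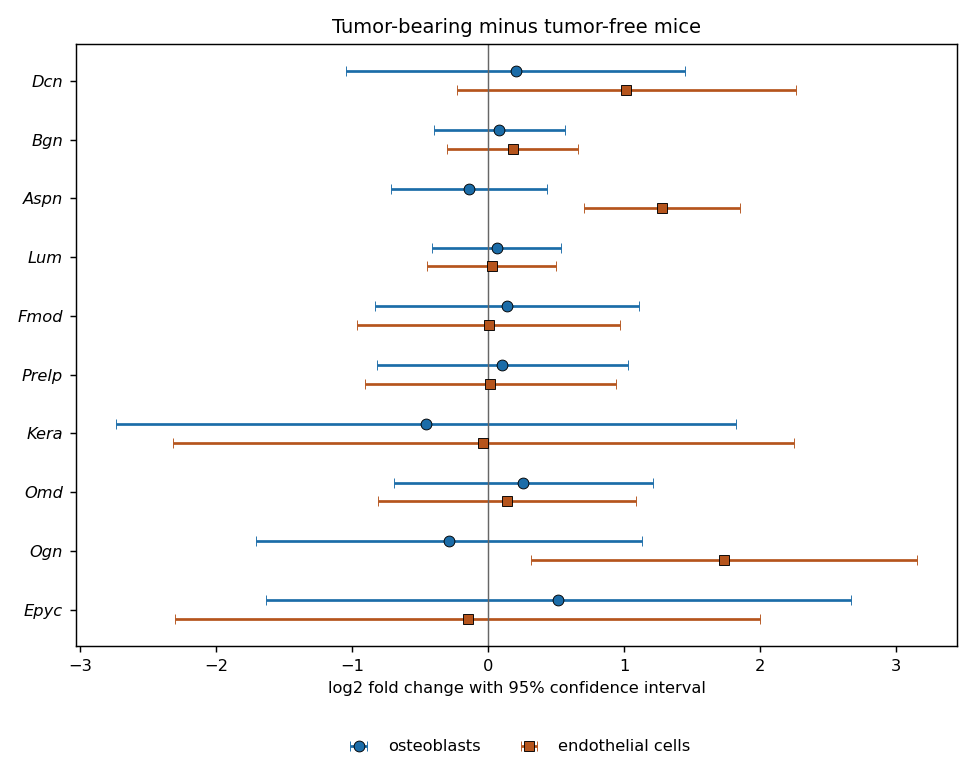
Log2 fold change of each member, tumor-bearing minus tumor-free mice, in osteoblasts and in endothelial cells, with 95% confidence intervals from limma that are not adjusted for the number of genes. The endothelial intervals of Aspn (1.28) and Ogn (1.73) lie above 0, and those of the osteoblasts all span 0.

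The genes whose pattern was most like each member were found by the root mean square difference of mean-centred log2 values over the 12 arrays. Aspn was nearest to Tnc, the tenascin of tendon and bone edges (0.39), followed by Cpe (0.42) and Col12a1 (0.44). Lum was nearest to Postn, the periosteal matrix gene periostin (0.46), then to Fap (0.86) and Col12a1 (0.90), and Dcn to Phex, an endopeptidase of osteoblasts and osteocytes (0.55), Col12a1 (0.59) and Tnc (0.61). Col12a1, a fibril-associated collagen, was thus among the 3 nearest genes of Dcn, Aspn and Lum.

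Fmod was nearest to Comp, the cartilage oligomeric matrix protein (0.40), Pcolce2 (0.40) and Omd (0.43), and Kera to the tendon matrix gene Thbs4 (0.51), Prkg2 (0.80) and Chodl (0.82). Omd was nearest to Ccdc80 (0.29), the mineralization phosphatase Alpl (0.40) and Mia (0.41), and Ogn to Cp (0.50), Bmp5 (0.54) and the bone sialoprotein gene Ibsp (0.56). Epyc was nearest to Stk26 (0.30), Snord16a (0.54) and Sobp (0.55). Bgn was nearest to Slc1a4 (0.17), Maged2 (0.18) and Pam (0.19), and Prelp to Hgsnat (0.26), Gabarap (0.28) and Nrep (0.28). Fmod and Omd were each other's nearest member (0.43), ranked 3 and 5 among 14216 genes, while the nearest member of Prelp, Bgn (0.44), ranked 457. Small differences come more easily to genes that vary little, so these distances compare genes for 1 member and not between members.

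The genes that surround the family were read from 8 lists, whose counts stand against 5.38% of all genes called higher and 7% called lower in tumor-free mice. Of 7 further small leucine-rich repeat genes tested, 2 were higher in osteoblasts of tumor-free mice and 0 lower: Chad, the cartilage protein chondroadherin (3.91, adjusted p = 0.00163, limma), and Podnl1 (1.57, adjusted p = 0.00374). Chad was at 9.07, 10.84 and 10.15 in those osteoblasts and at 11.28, 11.35 and 9.29 in osteoblasts of tumor-bearing mice, again lowest in replicate 3. The median log2 difference of this list was 0.34.

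Fibrillar and associated collagens, the partners that these proteoglycans bind, were higher in osteoblasts for 12 of 14 tested and lower for 0, with a median of 1.54 beside -0.01 for all genes. Col12a1 differed by 5.42, Col1a2 by 3.86, Col1a1 by 3.48 and Col5a2 by 2.13, and these 4 had adjusted p-values from 5.27e-08 to 3.84e-06 (limma). In tumor-bearing mice 11 of 14 were higher and 0 lower.

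Enzymes that process or cut the matrix split 7 higher and 3 lower of 12 tested in tumor-free mice (median 1.30). The collagenase gene Mmp13 differed by 7.05, the procollagen enhancer Pcolce by 3.06, the gelatinase Mmp2 by 3.33 and the procollagen and pro-biglycan protease Bmp1 by 1.78. Other matrix proteoglycans split 5 higher and 2 lower of 12 (median 0.06), with the versican gene Vcan at 2.09, the lubricin gene Prg4 at 3.76, the endocan gene Esm1 at 2.52 and the serglycin gene Srgn at -3.02.

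Chondroitin and dermatan sulfate synthesis genes, which build the chains of decorin and biglycan, split 3 higher and 3 lower of 21 (median 0.23). The chain-building Csgalnact2 was at 0.96, and the sulfotransferases Chst7 and Chst15 at -2.39 and -1.44, with Csgalnact1 at -1.08. Keratan sulfate synthesis split 1 higher (St3gal1, 1.06) and 2 lower (Chst2, -1.65, and B4galt4, -1.57) of 11 (median 0.07). The 6 calls of the chondroitin list fell to 3 without osteoblast tumor-free replicate 1 or 2 or any 1 endothelial tumor-free array, and the 3 keratan calls rose to 5 without osteoblast tumor-free replicate 2.

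Cell surface receptors of the family split 3 higher and 4 lower of 12 (median -0.08). The endocytic receptor Lrp1 was at 2.65 and the hyaluronan receptor Cd44 at 1.38, whereas the VEGF receptor Kdr was at -5.44 and the collagen-binding integrin Itga2 at -1.38. TGF-beta ligands and receptors split 4 higher and 4 lower of 12 (median 0.05), with the latent TGF-beta binding proteins Ltbp1 at 2.35 and Ltbp2 at 1.61, the ligand Tgfb2 at 1.53 and the endothelial co-receptor Eng at -3.44; its 8 calls were 5 when only the groups compared were fitted.

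Between tumor-bearing and tumor-free mice 0 genes of these 8 lists passed the test in osteoblasts (limma), where 0.0563% of all genes were called. Each list had 0 to 3 higher and 0 to 1 lower genes there at an unadjusted p under 0.05. Of all genes, 9.78% met that rule in either direction. In endothelial cells Mmp13 alone passed, where 0.0141% of all genes were called. Mmp13 was at 5.40, 4.93 and 5.00 in endothelial cells without tumor and at 7.53, 6.96 and 7.40 with tumor, with no overlap (log2 difference 2.18, adjusted p = 0.00124, limma); the tumor-free values are below the filter level. The call was lost when only the groups compared were fitted (adjusted p = 0.0703). In osteoblasts it lay between 12.02 and 12.31 in all 6 arrays.

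**Figure D5:**
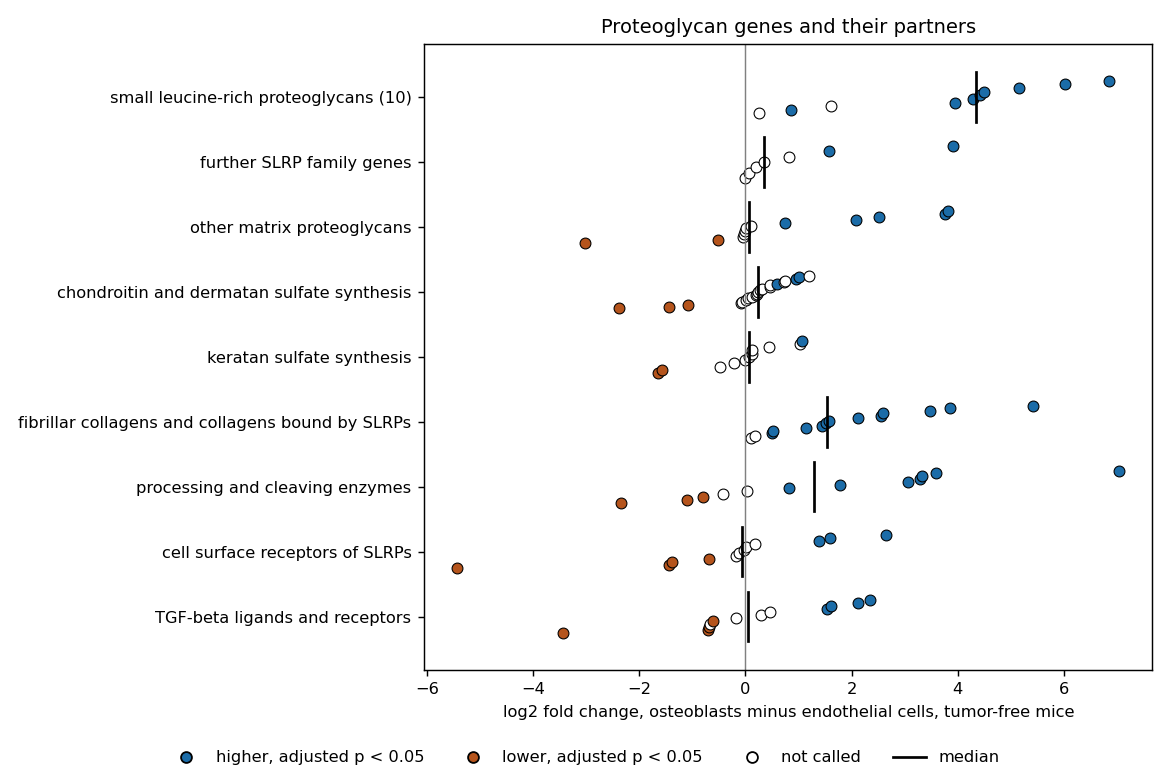
Log2 fold change, osteoblasts minus endothelial cells in tumor-free mice, of each member and of each tested gene in the 8 lists, 1 point per gene, with calls at an adjusted p under 0.05 (limma) marked and the median of each list shown. The members (median 4.35) and the collagens (median 1.54) lie mostly to the right, and the synthesis, receptor and TGF-beta lists spread to both sides of 0.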

How the data were processed

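Per the labels' protocols, each extraction used 5000 sorted cells and a Pico Pure kit, and the RNA was amplified by single primer isothermal amplification for Affymetrix Mouse Gene 1.0 ST arrays. The submitters' processing notes name affy. Version, summary method and genome build: not given in the sources used here. Deposited by the authors were log2 intensities, and the authors' normalization was kept. Amplification from few cells can distort transcript proportions.

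Of 34760 probe sets, 21640 had 1 gene symbol, 1321 several and 11799 none; the last 2 kinds were left out. Symbols were updated by Entrez number in RefSeq (21553 matched). The probe set with the highest mean stood for a gene. The linear model in limma 3.58.1 (R 4.3.3) took all 12 arrays and gave each of the 4 groups its own coefficient; tests were two-sided, adjusted over 14217 genes, and the script was tested on simulated data. No pair of arrays held identical values. The number of arrays limits the precision.

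The members and lists were chosen with earlier results of these data known. All members are named, with up to 4 genes per list by smallest p and the 3 genes most like each member. Further genes (Tnmd, Thbs4, Scx, Tnc, Mkx, Egr1, Lepr, Ibsp and the other tested osteoblast markers) were named after their values were seen. Alternatives changed the normalization, filter, probe set rule, samples fitted, weights, prior and replicate block, and left out arrays.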

Additional observations from a re-analysis of the deposited data

Results flagged for a closer look

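The tumor effect on Mmp13, a collagenase gene from the list of matrix enzymes, differed between the cell types. The difference of the effects, osteoblasts minus endothelial cells, was -2.22 on the log2 scale (SE 0.24, adjusted p = 0.0179, limma), with endothelial values higher in 3 of 3 tumor-bearing arrays than in any tumor-free array. The call did not hold in 9 of 21 alternatives, though the value stayed between -2.39 and -2.05: the adjusted p was 0.0577 without replicate 3 of both osteoblast groups, 0.0562 and 0.0527 without osteoblast tumor-bearing replicate 2 and 3, 0.0679 and 0.0503 without osteoblast tumor-free replicate 1 and 3, and, leaving out endothelial arrays, 0.0925 (tumor-bearing replicate 1), 0.0859 (tumor-bearing replicate 3), 0.0631 (tumor-free replicate 2) and 0.0701 (tumor-free replicate 3) in limma. No member of the proteoglycan family had such a difference past the threshold. For Mmp13 the endothelial tumor-free values were below the filter level, so the size of the difference is rough. Marrow stromal markers were also higher in the endothelial arrays of tumor-bearing mice, and their part in the Mmp13 values was not tested.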

How the results depend on the processing

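The count of members called was recomputed under 22 alternatives per comparison (21 for the difference of the tumor effects). It ranged from 6 to 8 for osteoblasts against endothelial cells in tumor-free mice, from 5 to 10 in tumor-bearing mice, and was 0 under every alternative run for the tumor effect in endothelial cells and for the difference of the effects. For the tumor effect in osteoblasts it was 0 except for 1, Kera, without replicate 3 of both osteoblast groups, where the values were 1.40 for Kera, 0.20 for Aspn and 0.38 for Ogn, and the difference of the effects for Kera was 1.44. Array weights gave Kera 0.23 in osteoblasts and 0.25 for the difference, and quantile normalization gave Prelp -0.0062 in endothelial cells. Leaving out 1 array at a time, the tumor effect in osteoblasts ranged from -0.29 to 0.72 for Prelp, from -0.21 to 1.67 for Epyc, from -0.33 to 0.046 for Aspn, from -1.34 to 1.17 for Kera and from -0.67 to 0.27 for Ogn, that of Prelp in endothelial cells from -0.11 to 0.18, the difference of the effects for Kera from -1.31 to 1.20, and Prelp in osteoblasts against endothelial cells of tumor-bearing mice from -0.056 to 0.96; the cause was not tested. Over all genes the calls for the tumor effect in osteoblasts went from 8 to between 0 (only the groups compared) and 45 (without replicate 3 of both osteoblast groups), those in endothelial cells from 2 to between 2 and 6, and those for the difference from 4 to between 0 and 8. Bgn in tumor-bearing mice passed the test with median centring (adjusted p = 0.0439, limma), the 60th percentile filter (0.0430), trend and robust estimation (0.0481) and array weights (0.0191). Over all genes, deviations of same-numbered arrays had correlations from -0.08 to 0.07. Such correlations cannot show whether same-numbered arrays shared mice or handling, which the labels do not state. In both osteoblast groups the pan-haematopoietic median was highest in replicate 3 and the chondrocyte median in replicate 2. The neutrophil median was highest in replicate 3 without tumor and lowest in replicate 3 with tumor. With the replicate block, 7 members were called in tumor-free mice (Bgn at an adjusted p of 0.0524 was lost), 7 in tumor-bearing mice and 0 in the other comparisons, and calls over all genes fell to 1 for the tumor effect in osteoblasts and to 1 for the difference. Signal near the floor limits the endothelial values of Lum, Fmod, Kera, Omd and Epyc, and those of Aspn and Ogn in tumor-free mice. It also limits Dcn in endothelial tumor-free replicate 2 (4.61).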
